A study of Macaca mulatta with 12 samples.

Results

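The data described here are the reads of the microRNA (miRNA) genes mml-mir-204 and mml-mir-211 in small RNA profiles of rhesus macaque (Macaca mulatta) tissues. The genes were chosen by name, as 2 of the 832 pre-miRNAs with mature miRNAs in the study's own list of pre-miRNAs, and both were found there. The study sequenced small RNAs of wild-type animals aged 36 months that had received no treatment. There were 12 profiles of 8 tissues, with 2 profiles each of kidney, muscle, small intestine and large intestine and 1 each of liver, lung, occipital lobe (the visual part of the cerebral cortex) and spinal cord. The study used 2 animals, but which animal gave which profile is not stated in the sources used here, so that the p-values below measure the spread between profiles, which may be partly technical. The comparisons across tissues asked where both genes were expressed and whether their reads could be told apart.

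A miRNA gene is transcribed as a hairpin, the pre-miRNA, which is cut into a short duplex with a 5' arm and a 3' arm strand. Usually 1 strand is kept by an Argonaute protein and pairs with messenger RNAs through its seed, the bases 2 to 8. miR-204 and miR-211 form a small family whose human genes lie in introns of TRPM3 and TRPM1, which encode cation channels, and which is best known from the retinal pigment epithelium, the choroid plexus, the kidney and, for miR-211, melanocytes. In the RefSeq annotation of the rhesus assembly T2T-MMU8v2.0, which is not the build used by the study, MIR204 lay inside TRPM3 on chromosome 15. In the same annotation MIR211 lay on chromosome 7, as did TRPM1, but outside the gene model of TRPM1. Messenger RNAs of the host genes were not measured.

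The mature sequences are shown first because the whole separation of both genes rests on them. The 5' arm miRNAs are given 5' to 3', from the study's supplementary list of pre-miRNAs, with the seed in capitals.
mml-miR-204-5p: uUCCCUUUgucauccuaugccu
mml-miR-211-5p: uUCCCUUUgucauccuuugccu
Both had the same seed, which only these 2 of the 1219 mature sequences of the list carried. They agreed at 21 of 22 positions, and the difference is marked next in capitals at position 17, counted from the 5' end.
mml-miR-204-5p: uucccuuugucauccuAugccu
mml-miR-211-5p: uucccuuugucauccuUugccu
The change from miR-204 to miR-211 was A17U. The hairpins around them were much less alike, and are shown with both arms in capitals (for the 3' arm of mml-mir-211, for which the list held no mature miRNA, the sequence of its reads).
mml-mir-204 hairpin: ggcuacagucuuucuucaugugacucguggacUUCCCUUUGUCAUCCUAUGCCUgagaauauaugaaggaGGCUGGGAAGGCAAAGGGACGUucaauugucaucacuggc
mml-mir-211 hairpin: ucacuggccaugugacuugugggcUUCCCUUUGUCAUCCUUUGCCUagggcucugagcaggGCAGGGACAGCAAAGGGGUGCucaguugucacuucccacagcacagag

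The profiles held 22118095 to 25579064 valid reads, so that 1 read was worth about 0.4 RPTM (reads per 10000000 valid reads). Exact matches to the pre-miRNAs of the list made up 36.8% of all reads in the liver profile, the lowest, and 69.3% in kidney 1, the highest. The neural and liver marker miRNAs were highest where the tissue labels place them. Of the kidney markers, miR-10b-5p was highest in kidney. However, miR-192-5p had 253994 and 277153 RPTM in kidney beside 1873840 and 1445510 in small intestine and 1203650 in liver. miR-30a-5p had 339220 and 237134 RPTM in kidney beside 317574 in lung. The neural markers (miR-9, miR-124, miR-219 and miR-338) came to 399474 RPTM in the occipital lobe and 290521 in the spinal cord and to at most 1172 elsewhere, and miR-122, a hepatocyte miRNA, to 7320 RPTM in liver and at most 4.37 elsewhere. For the tests, occipital lobe and spinal cord were taken as 1 neural group, since each had 1 profile. The difference between these tissues is therefore part of the spread that the p-values measure.

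miR-204-5p was a kidney and neural miRNA in these tissues. Its level was 29724 RPTM in kidney 1 and 19045 RPTM in kidney 2. The occipital lobe had 19591 RPTM and the spinal cord 15956 RPTM. All other profiles were far lower, with 1114 RPTM in lung, 1077 in liver, 571 and 983 in large intestine, 669 and 282 in muscle, and 144.03 and 589 in small intestine. The lowest of the 4 kidney and neural profiles was 14.3 times the highest of the 8 others, and kidney 1 was 206 times small intestine 1. In RPTM the order was kidney, occipital lobe, spinal cord, lung, liver, large intestine, muscle and small intestine. The occipital lobe lay between both kidney profiles, and the ranges of muscle and small intestine overlapped, as did those of large intestine and muscle, so that these neighbours did not differ beyond their spread. Among all mature sequences miR-204-5p stood at rank 15 and 19 by level in kidney, 30 in the occipital lobe and 36 in the spinal cord, and between 68 and 127 in the other profiles.

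miR-211-5p was much scarcer and had a different order of tissues. Its level was 305 RPTM in kidney 1 and 106 RPTM in kidney 2. In neural tissue it was 183 RPTM in the spinal cord but only 29.99 RPTM in the occipital lobe. Liver had 101 RPTM, close to kidney 2 and above the occipital lobe, and with reads of any 3' end it had 156 RPTM beside 110 in kidney 2. The remaining profiles were low, with 10.8 and 3.92 RPTM in muscle, 7.69 and 3.83 in large intestine, 2.19 in lung, and 0.409 and 1.27 in small intestine, where the latter values stood for 1 read and 3 reads. The range of the neural profiles (29.99 to 183) overlapped that of kidney and the value of liver, and the ranges of muscle and large intestine overlapped, so that these tissues were not set apart by level. The spinal cord had 6.11 times as much miR-211-5p as the occipital lobe, while for miR-204-5p the occipital lobe had 1.23 times as much as the spinal cord. Liver had 46.3 times as much miR-211-5p as lung, while their miR-204-5p differed by a ratio of 0.967. These 4 tissues had 1 profile each, so that such ratios have no replicate check.

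**Figure D1:**
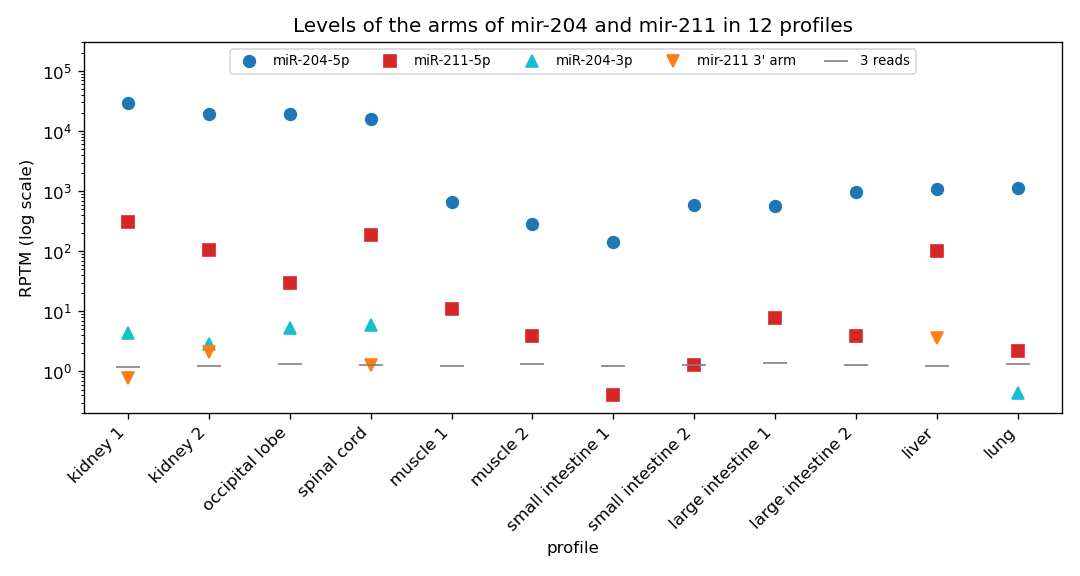
Level of each arm in the 12 profiles, in RPTM on a log scale (1 point per profile, values of 0 not drawn, grey dashes at the level of 3 reads). miR-204-5p lies between 15956 and 29724 RPTM in kidney, occipital lobe and spinal cord and at or below 1114 RPTM elsewhere, while miR-211-5p is highest in kidney 1 (305 RPTM) and reaches 101 RPTM in liver.

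Both 5' arm miRNAs rose in kidney. By edgeR's quasi-likelihood test with TMM scaling, kidney against the mean of the 6 other groups gave a log2 fold change of 4.72 (SE 0.44, adjusted p = 1.36e-05) for miR-204-5p. The same test gave 4.73 (SE 0.52, adjusted p = 4.97e-05) for miR-211-5p. Of the 371 mature sequences tested, 12.9% were called higher in kidney and 4.58% lower (48 and 17 sequences, against 31 and 42 when the profiles were scaled by valid reads), and the median log2 fold change was -0.30. Ordered by this fold change, miR-211-5p was number 7 and miR-204-5p number 8 of the 371.

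Both also rose in the neural group. The log2 fold change was 2.71 (SE 0.43, adjusted p = 0.000127) for miR-204-5p and 1.99 (SE 0.54, adjusted p = 0.00562) for miR-211-5p. Here 43.7% of the tested sequences were called higher and 24.3% lower (162 and 90 sequences, against 232 and 46 when scaled by valid reads), and the median was 0.89, so that a rise in neural tissue was common. The members ranked 92 and 124 of 371 by fold change. The rise of miR-211-5p in the neural group rested on the spinal cord: without that profile its log2 fold change was 0.55 (adjusted p = 0.438), below the median of 0.80 of all sequences in the same fit. For miR-204-5p the neural log2 fold change stayed between 2.27 and 3.04 when any 1 of the 12 profiles was left out.

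Kidney against neural gave log2 fold changes of 1.72 (SE 0.65, adjusted p = 0.0362) for miR-204-5p and 2.35 (SE 0.77, adjusted p = 0.0196) for miR-211-5p. In this comparison 23.2% of sequences were called higher in kidney and 37.5% lower (86 and 139 sequences, against 44 and 219 when scaled by valid reads), and the median was -0.84. This difference depended on the scaling. With valid reads in place of TMM the values were 0.46 (SE 0.64, adjusted p = 0.543) and 0.95 (SE 0.87, adjusted p = 0.360), with the median of all sequences at -2.13, and in RPTM the kidney and neural profiles of both miRNAs overlapped.

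In muscle the log2 fold change was -2.26 (SE 0.59, adjusted p = 0.00954) for miR-204-5p, which fell, and -1.13 (SE 0.70, adjusted p = 0.224) for miR-211-5p, where 22.6% of sequences were called higher and 15.4% lower. In small intestine both fell, with log2 fold changes of -2.04 (SE 0.58, adjusted p = 0.0262) and -4.08 (SE 0.94, adjusted p = 0.00977), and 13.2% of sequences were called higher and 4.58% lower (49 and 17 sequences, against 28 and 91 when scaled by valid reads). The value of miR-211-5p there rests on 4 reads in both profiles together and carries the prior count of the fit. Both small intestine calls were fragile: that of miR-204-5p was lost with identical reads only (adjusted p = 0.122) and without kidney 1, large intestine 2 or small intestine 1 (log2 fold changes of -2.04, -2.02 and -1.40), and that of miR-211-5p was lost without either small intestine profile (-3.60 and -5.01). The muscle call of miR-204-5p was lost with identical reads only (-1.53) and without muscle 2 (-1.71). In large intestine the log2 fold changes were -0.62 (adjusted p = 0.484) and -0.82 (adjusted p = 0.494), and 11.9% of sequences were called higher and 4.85% lower (44 and 18 sequences, against 21 and 79 when scaled by valid reads). Liver and lung had 1 profile each and were not tested against the rest.

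**Figure D2:**
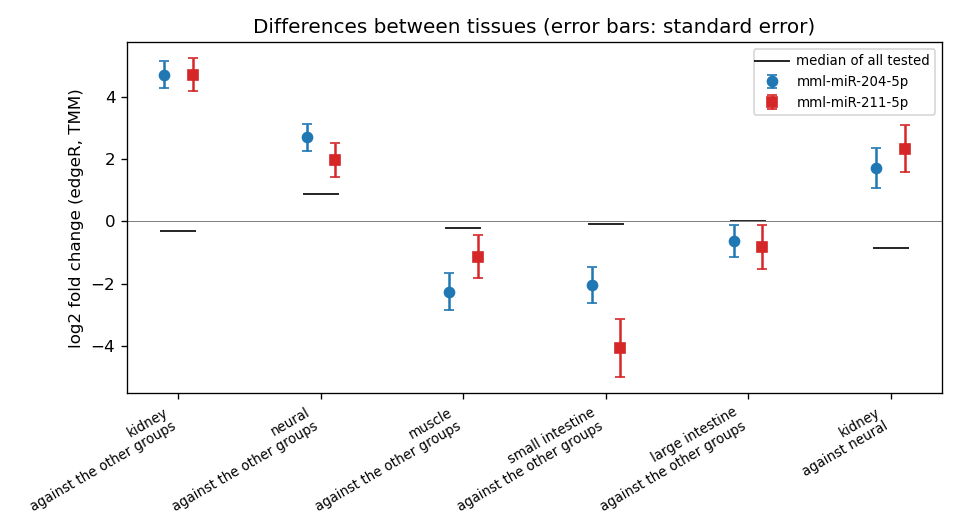
Log2 fold change of both miRNAs in 6 comparisons (edgeR with TMM, points with standard errors derived from the F value of the test) beside the median of the 371 tested sequences (black dashes). Both miRNAs stand at about 4.7 in kidney, where the median is -0.30, and at 2.71 and 1.99 in the neural group, where the median is 0.89.

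Other miRNAs known from both tissues were examined by list. The lists were chosen with earlier results of these data known, so that their counts are a description and no independent check. Of 14 miRNAs known from renal epithelium, 9 were called higher in kidney and 0 lower, with a median log2 fold change of 1.83, beside 12.9% and -0.30 over all tested sequences. Among these miR-10b-5p, a homeobox cluster miRNA, rose by 4.67 (adjusted p = 0.000472) and miR-30a-5p by 2.15 (adjusted p = 0.000472). miR-192-5p, of kidney and gut epithelium, rose by 1.90 (adjusted p = 0.0185), while miR-10a-5p had 1.69 (adjusted p = 0.130). All 12 tested members of a list of neural miRNAs were called higher in the neural group, with a median of 5.81, beside 43.7% and 0.89 over all. Among them miR-9-5p, of neural progenitors and neurons, had 8.75 (adjusted p = 5e-09) and miR-219-3p, of oligodendrocytes, had 10.22 (adjusted p = 1.84e-08), so that the neural rise of miR-204-5p was small beside theirs. Of the neural list 1 was called higher in kidney and 3 lower, beside 12.9% and 4.58% over all tested sequences. Of the renal list 0 were called higher in the neural group and 7 lower, beside 43.7% and 24.3% over all.

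Markers of other cell types moved with the tissues. The 4 epithelial miRNAs (miR-141, miR-200a, miR-200c and miR-429) summed to 2250 to 4541 RPTM in kidney and 11.3 to 23.9 RPTM in neural tissue. Of them 3 of 4 were called higher in kidney and 3 of 4 lower in the neural group, beside 12.9% and 24.3% over all tested sequences. miR-200c was at 0 in both neural profiles. The 4 epithelial miRNAs also reached 10612 RPTM in lung and 3729 to 11418 RPTM in intestine, where miR-204-5p was low. The miRNAs of multiciliated cells (miR-34c, miR-449a and miR-449b) summed to 1310 RPTM in lung, where miR-211-5p was at 2.19 RPTM, to 211 in the spinal cord, 16.5 in the occipital lobe and 2.07 to 3.91 in kidney. In the spinal cord miR-34c-5p alone gave 210.4 RPTM, while miR-449a-5p was lower there (0.837 RPTM) than in the occipital lobe (2.17 RPTM) and miR-449b-5p was at 0. The endothelial marker miR-126-3p had 940 to 1268 RPTM in kidney and 493 to 1136 in neural tissue, the smooth muscle markers (miR-143 and miR-145) had 322832 to 517164 and 103065 to 683716, and the immune markers (miR-142, miR-150 and miR-223) had 465 to 642 and 476 to 1011. All of these were called lower in the neural group, where 24.3% of all tested sequences were. Their median log2 fold changes there were -1.89 (endothelial), -2.73 (smooth muscle) and -2.78 (immune). In kidney only miR-150-5p, 1 of 4 immune sequences, was called lower (-2.40), beside 4.58% over all. Of the erythroid markers, miR-486-5p made up nearly all of the sum, with 50449 to 83465 RPTM in kidney and 171594 to 276764 in neural tissue. miR-451-5p was level, with 241 to 308 and 234 to 362 RPTM, miR-144-3p had 25.8 to 32.2 and 34.8 to 63.2 RPTM, and 0 of these 3 were called in either comparison. Over all tested sequences 12.9% were called higher and 4.58% lower in kidney, and 43.7% and 24.3% in the neural group. The part of these cells in the levels of miR-204 and miR-211 was not tested, and in whole tissue fewer cells of a type and less RNA per cell cannot be told apart.

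The miRNAs most like miR-204-5p over the 12 profiles were sought by the correlation of log2(RPTM + 1), as a description, since profiles share depth and composition. The leading 5 were miR-100-3p (Pearson's r = 0.860), miR-874-3p (0.851), miR-211-5p (0.836), miR-363-3p (0.832) and miR-874-5p (0.824). For miR-211-5p they were miR-204-5p (0.836), miR-887-3p (0.770), miR-660-5p (0.763), miR-100-3p (0.758) and miR-1307-3p (0.752). The partner gene was thus the closest sequence for miR-211-5p and number 3 for miR-204-5p. miR-100-3p is a scarce 3' arm strand, with 7.03 to 17.8 RPTM in kidney and neural tissue and at most 6.86 RPTM elsewhere. miR-874-3p, unlike miR-204-5p, was much higher in neural tissue (433 and 683 RPTM) than in kidney (94.2 and 108 RPTM), and reached 93.1 RPTM in lung.
For both members r was 0.836 (Spearman's rho 0.748) over the 12 profiles and 0.821 (rho 0.648) over the 10 profiles without kidney 1 and the occipital lobe, the farthest from the median of miR-204-5p. Over the 8 profiles that were neither kidney nor neural, which span a smaller range and mostly hold few miR-211-5p reads, r was 0.528 (rho 0.333).

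The reads told both genes apart. The 12 profiles held 221051 reads that matched either hairpin exactly, in 41 different sequences (34 on mml-mir-204, 7 on mml-mir-211), and 0 of these sequences occurred in both hairpins. Because the 5' arms differ in a single base, a read error at position 17 could turn a miR-204-5p read into an apparent miR-211-5p read. Reads that were exact except for the letter at position 17 were therefore counted by letter. Over the 12 profiles 218132 reads of miR-204-5p had A, 1864 reads were exact on mml-mir-211 with U, and 69 and 323 had C and G, the letters that belong to neither gene.
The ends of the reads sharpened this. After the shared 22 nucleotides the hairpin of mml-mir-204 goes on with G and that of mml-mir-211 with A. Among reads that ended within the 22 nucleotides, 41409 had A at position 17, 1852 had U, 8 had C and 50 had G. Among reads that went past them with the G of mml-mir-204, 176723 had A, 135 had U, 61 had C and 269 had G, so that most of the C and G reads were of this longer kind, which is not counted for miR-211-5p. In the occipital lobe, where miR-211-5p was least separable among the kidney and neural profiles, 69 reads within the 22 nucleotides had U, 1 had C and 5 had G. In small intestine 1 the only U read stood beside 0 C reads and 0 G reads of that kind.

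The share of miR-211-5p among the 5' arm reads of both genes differed widely between tissues. It was 8.59% in liver (95% Wilson interval 7.63 to 9.66%, 251 of 2922 reads). In kidney it was 1.02% (0.947 to 1.09%, 780 of 76811 reads) and 0.552% (0.489 to 0.624%, 256 of 46337 reads). In the spinal cord it was 1.14% (1.03 to 1.25%, 438 of 38584 reads) and in the occipital lobe 0.153% (0.121 to 0.193%, 69 of 45147 reads). These intervals, which cover counting error only, did not overlap between liver and any other profile, nor between both kidney profiles, nor between both neural profiles. Muscle had 1.60% and 1.37%, large intestine 1.33% and 0.388%, small intestine 0.283% and 0.214%, and lung 0.196%, all with wide intervals. When the mean of the C and G reads at position 17, whatever their ends, was taken off the U reads, the share was 0.0732% in the occipital lobe, 0 and 0.107% in small intestine and 8.46% in liver, and it moved by less than 1.5 times in the other profiles. Most of these C and G reads were of the longer kind that is not counted for miR-211-5p, so that this took off too much. In the occipital lobe 21 C and 51 G reads were used, of which 1 and 5 ended within the 22 nucleotides. With exact reads of any 3' end the share in liver was 12.5% (11.4 to 13.7%, 386 of 3090 reads). In other terms there were 10.6 reads of miR-204-5p for each read of miR-211-5p in liver, 97.5 and 180 in kidney, 87.1 in the spinal cord and 653 in the occipital lobe.
By an exact two-sided permutation test over profiles, whose smallest possible p is 0.0152, the mean share was 0.644% in neural tissue against 1.55% in the 10 other profiles (p = 0.455, adjusted p = 0.682). It was 0.784% in kidney against 1.53% in the 10 others (exact permutation p = 0.636, adjusted p = 0.682). The adjustment was over the 6 shares tested. Liver alone decided the direction in kidney: without it the difference was 0.0435 percentage points in favour of kidney, in place of -0.741.

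**Figure D3:**
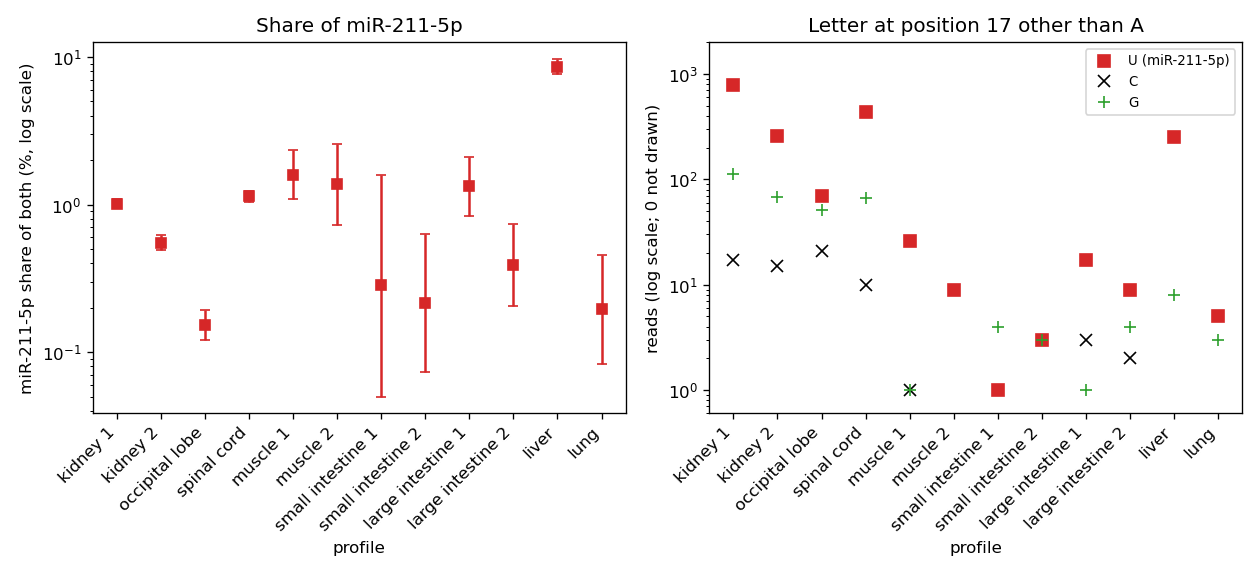
Left, the share of miR-211-5p among the 5' arm reads of both genes in each profile (percent on a log scale, bars are 95% Wilson intervals); right, the reads with U, C or G at position 17 (log scale, 0 not drawn). Liver stands at 8.59%, above the 0.153 to 1.60% of all other profiles, and the U reads exceed the C reads and the G reads, each on its own, in every kidney and neural profile.

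Both 5' arm miRNAs began at a fixed base but differed in length. Of the 5' arm reads, 99.8% began at the first listed base in both genes. The most abundant reads are shown because they differ at the 3' end as well as at position 17, with both in capitals.
mml-miR-204-5p 23 nt: uucccuuugucauccuAugccuG
mml-miR-211-5p 22 nt: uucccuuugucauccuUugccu
miR-204-5p was mostly 1 nucleotide longer than its listed form: 80.4% of its exact reads from the first base had 23 nucleotides and 17.3% had 22. For miR-211-5p 0.593% had 23 nucleotides, 79.4% had 22 and 11.3% had 21. The 23-nucleotide form of miR-204-5p was the most common length in all 12 profiles, with 77.7% and 84.6% in kidney, 85.9% in the occipital lobe and 78.9% in the spinal cord, and its lowest shares were in muscle (55.0% and 59.0%) and lung (59.5%).

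Liver had a short form of miR-211-5p. Of its 386 exact reads from the first base in liver, 135 (35.0%) had 19 nucleotides, 82 (21.2%) had 21 and 156 (40.4%) had 22.
mml-miR-211-5p 19 nt: uucccuuugucauccuUug
The 19-nucleotide read was seen 7 and 9 times in kidney (0.894% and 3.40% of the exact reads), 8 times in the spinal cord (1.79%) and 0 times in the occipital lobe, so that 135 of the 165 such reads came from the single liver profile. In large intestine 1 there were 4 among 21 reads. The matching short form of miR-204-5p made up 1.22% of its reads in liver (33 of 2697), 1.93% in lung and 0.701% in kidney 2. These 19-nucleotide reads end 3 bases early and are not in the levels above, which allow 2. With reads of any 3' end, an alternative chosen after seeing these short reads, miR-211-5p in liver was 156 RPTM in place of 101, while kidney 1 had 308 in place of 305. No genome was used here, so other origins of this short read in the macaque genome were not searched.

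**Figure D4:**
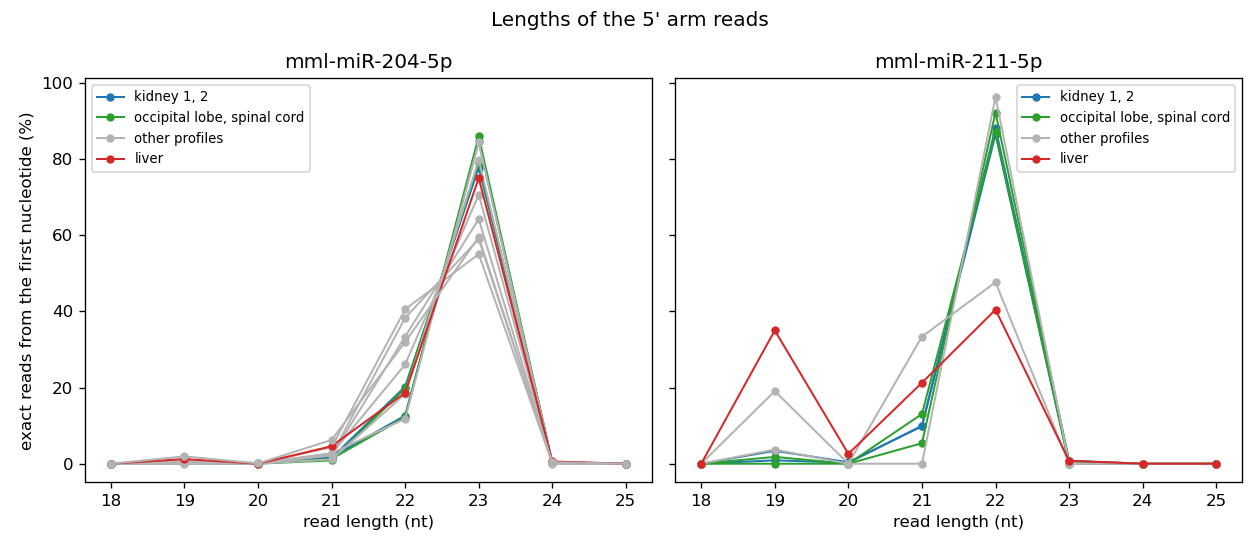
Lengths of exact 5' arm reads that start at the first base, as percent of those reads (1 line per profile with at least 20 reads). miR-204-5p peaks at 23 nucleotides in every profile, miR-211-5p at 22, and liver (red) has a further peak of 35.0% at 19 nucleotides for miR-211-5p.

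The 3' arms were rare. mml-mir-204 gave 218953 exact reads on its 5' arm and 48 on its 3' arm, and mml-mir-211 gave 2029 and 19. miR-204-3p, counted within 2 nucleotides of its listed ends, had 45 reads and a mean of 1.56 RPTM, and it did not pass the filter for the tests. It was seen in kidney (4.30 and 2.89 RPTM), the occipital lobe (5.22), the spinal cord (5.86) and, with 1 read, lung (0.437), and had 0 reads in the 7 other profiles, where 3 reads would be 1.21 to 1.36 RPTM. As a share of the reads of both arms it was 0.0145% and 0.0152% in kidney, 0.0266% in the occipital lobe and 0.0367% in the spinal cord. The mean share was 0.0317% in neural tissue against 0.00689% in the 10 other profiles (exact permutation p = 0.0455, adjusted p = 0.273). It was 0.0148% in kidney against 0.0103% in the 10 others (exact permutation p = 0.682, adjusted p = 0.682). In 7 of the other profiles the share was 0 of 352 to 2671 reads, where 3 reads would be 0.112 to 0.852% and the upper Wilson limits were 0.144 to 1.08%, so that a difference from those profiles was not detectable at this depth.
For mml-mir-211 the 19 reads of the 3' arm were all of 1 sequence, 9 in liver, 5 and 2 in kidney 2 and kidney 1, and 3 in the spinal cord, which are the tissues richest in miR-211-5p apart from the occipital lobe (0 reads). The 3' arm reads of both genes, shown with their differences in capitals, are easier to tell apart than the 5' arm reads, with 5 differences in 20 positions (the last letter of the second read has no partner).
mml-mir-204 3' arm read: gcUgggaAGgcaaagggACg
mml-mir-211 3' arm read: gcAgggaCAgcaaagggGUgC
The listed miR-204-3p starts 1 base before this read, so that the seed of the read is shifted by 1 base from that of the listed form.
mml-miR-204-3p: gGCUGGGAaggcaaagggacgu

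Part of the reads ended in bases that the hairpin does not hold. Reads counted as having such non-templated tails, of 1 or 2 bases, made up 14.8% of the miR-204-5p reads (37754 tailed reads). For miR-211-5p they made up 35.3% (1015 tailed reads). Most were a single C, in 8.46% and 25.1% of the reads. The 2-base tails of miR-204-5p (10483 reads) are less certain. With G in place of the U at position 22 there were 9425 reads of 22 or 23 nucleotides, beside 2367 reads with a single G tail. Most of these 9425 were thus counted as 2-base tails. In them a changed base followed by the G of the hairpin cannot be told from a tail, so the 14.8% may include untailed reads. The C form of miR-204-5p is shown with the added letter in capitals, in the place where the hairpin has U.
mml-miR-204-5p tailed with C: uucccuuugucauccuaugccC
The C share of miR-204-5p ranged from 4.47% in kidney 1 and 4.95% in the spinal cord to 17.6% in large intestine 1 and 23.1% in lung. The median C share over the miRNAs with at least 1000 reads in a profile also varied, from 4.46% in the spinal cord and 4.47% in kidney 1 to 14.6% in large intestine 1. miR-204-5p was at this median in kidney 1, just below it in kidney 2 (10.7% beside 10.9%) and above it in the 10 other profiles. It was over 1.5 times the median in 4 of them: lung (median 8.96%), small intestine 2 (15.1% beside 8.76%), the occipital lobe (13.3% beside 7.82%) and muscle 1 (11.5% beside 7.24%). The 10 include muscle 2 and small intestine 1, where miR-204-5p itself fell short of 1000 reads (647 and 352 untailed, 123 and 80 tailed). With all tails together miR-204-5p was instead below the median tailed share in every profile, as with 10.6% beside 19.3% in kidney 1 and 18.9% beside 27.3% in the occipital lobe. Over the 12 profiles the median tailed share of 265 tested miRNAs with at least 1000 reads was 23.5%. By this share miR-204-5p ranked 198 and miR-211-5p 60. The C share of miR-211-5p, from fewer reads, was 14.3% and 42.8% in kidney, 52.0% in the occipital lobe, 16.8% in the spinal cord and 29.2% in liver. The tailed share of miR-204-5p averaged 13.97% in kidney against 19.3% in the 10 others (exact permutation p = 0.197, adjusted p = 0.591). It averaged 15.3% in neural tissue against 19.02% in the 10 others (exact permutation p = 0.364, adjusted p = 0.682). Single U tails cannot be told from remains of the adapter, which starts with T, and were 0.968% and 0.660% of the reads.
A miR-211-5p read that goes on with G is the same as a miR-204-5p read of that length with U at position 17. These 135 reads, 55 of them in kidney 1, 22 in the spinal cord and 20 in liver, cannot be assigned to either gene, and they are among the 1015 tailed reads of miR-211-5p. Without them the tailed share of miR-211-5p was 32.1% (880 reads) in place of 35.3%.

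**Figure D5:**
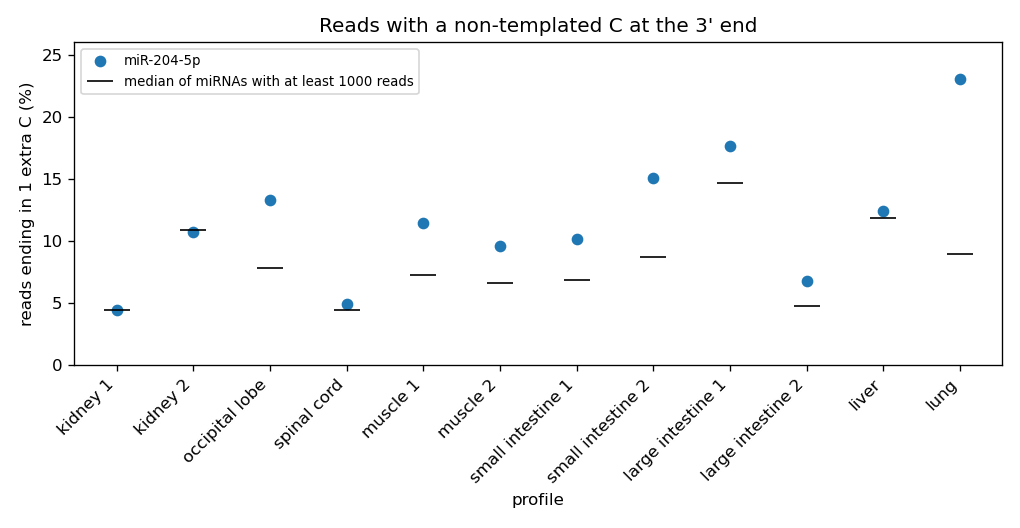
Share of miR-204-5p reads that end in 1 non-templated C in each profile (points, percent) beside the median over the miRNAs with at least 1000 reads in that profile (dashes). Lung, at 23.1% beside a median of 8.96%, lies farthest above its median.

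Within positions 1 to 20 neither 5' arm carried a frequent base change, position 17 left aside. Of the 57 possible changes in each miRNA, 0 reached 5% with at least 10 reads in any profile. For miR-211-5p this is a weak check, since several profiles held few of its exact reads, such as 5 in lung and 9 in muscle 2. The most frequent was U10C in miR-204-5p, at 0.316% of the reads. In miR-211-5p U1C and U6C were level, each at 0.553% (9 of 1628 reads). Position 22 was not included, where a changed base cannot be told from the tails above. There U22C stood at 8.61% in miR-204-5p and 30.6% in miR-211-5p, and U22G at 4.22% and 4.43%.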

How the data were processed

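Small RNAs of 12 macaque tissue samples were sequenced on an Illumina HiSeq instrument after TRIzol extraction. The authors deposited raw counts of unique sequences: reads were kept if their first 25 nucleotides scored 30 or higher, the 3' adapter was removed, sequences under 18 nucleotides were dropped and identical sequences were counted, with no alignment or normalization.

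Here, sequences identical to a stretch of a pre-miRNA of the study's list, and starting and ending at most 2 nucleotides from a mature miRNA's ends, were counted and scaled to RPTM. Mature miRNAs with 1 sequence were counted once. The 371 sequences with a mean of at least 5 and an SD of at least 1 RPTM were tested with edgeR 4.0.16 (R 4.3.3; quasi-likelihood, TMM, 7 groups, Benjamini-Hochberg at 0.05). The SE given with a fold change is approximate: the absolute log2 fold change divided by the square root of the F value of the quasi-likelihood test. Shares were compared by exact permutation over profiles (scipy 1.17.1). TMM factors ran from 0.555 to 2.35. Depth was 22118095 to 25579064 reads per profile, and intervals are Wilson at 95%. On counts simulated for kidney against the other groups over 371 sequences, 74 of 74 sequences changed 8-fold were recovered, with 4 false calls. In this simulation all other sequences had the same mean in every tissue. It therefore does not show how the fit behaves with the wide tissue differences of these profiles.

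Replicate numbers came from the labels. Same-numbered profiles deviated together weakly (mean correlation 0.030 over 6 pairs, from -0.139 to 0.153), so that profiles were not paired. Named were the members on both arms, the 5 sequences most correlated with each 5' arm miRNA, at most 4 of each list, and at most 5 read variants per arm by total reads. Members and lists were chosen with earlier results of these data known. The alternatives tried were other read assignments, filters, scalings, DESeq2 1.42.0, separate neural tissues, a replicate block and leaving out each profile.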

Additional observations from a re-analysis of the deposited data

How the results depend on the processing

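The rise of both 5' arm miRNAs in kidney and of miR-204-5p in the neural group kept its direction and stayed past the threshold in every alternative run. The rise of miR-211-5p in the neural group lost it only without the spinal cord, where the log2 fold change was 0.55, in a range of 0.55 to 2.69 when 1 profile was left out. Kidney against neural was the least stable comparison: for miR-204-5p it was 2.20 with identical reads only (adjusted p = 0.0653), 0.46 with valid reads in place of TMM (adjusted p = 0.543) and 1.39 to 2.16 with 1 profile left out, failing the threshold without kidney 1, kidney 2 or the spinal cord. For miR-211-5p it was 0.95 with valid reads (adjusted p = 0.360) and 1.65 to 3.78 with 1 profile left out, failing without kidney 1 or the occipital lobe. With identical reads only, miR-204-5p no longer passed in muscle (-1.53) or small intestine (-1.95). With 1 profile left out, miR-204-5p ranged from -3.09 to -1.71 in muscle (failing without muscle 2) and from -3.32 to -1.40 in small intestine (failing without kidney 1, large intestine 2 or small intestine 1), and miR-211-5p from -5.01 to -3.60 in small intestine (failing without either small intestine profile). A group left with 1 profile was assumed to vary like the others. The cause of these changes was not tested. The 3' arm share of mml-mir-204 in kidney turned to -0.000664 percentage points when reads had to begin at the first listed base, and the share of mml-mir-211 in kidney ranged from -0.973 to 0.0435 percentage points with 1 profile left out.

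With the replicate block on the 8 numbered profiles, miR-204-5p in kidney was 5.78 and miR-211-5p 6.03, beside 5.73 and 6.06 for those profiles unpaired, and the block changed no call of either miRNA. It gave 37 lower calls in kidney (40 unpaired), 43 in small intestine (47) and 33 in large intestine (38), and the unpaired fit gave 75 higher calls in kidney. Blocked values for the neural group were not obtained because those profiles carry no second number.

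Counts of called sequences, beside those of the report, changed most. With identical reads only there were 106 higher in neural, 37 lower in muscle, 26 higher in small intestine, 28 higher and 9 lower in large intestine and 73 lower in kidney against neural. With tails counted there were 27 lower in kidney and 28 lower in large intestine, and with no filter 74 higher and 26 lower in kidney. With valid reads there were 31 higher and 42 lower in kidney, 46 lower in neural, 28 and 91 in small intestine, 21 and 79 in large intestine, and 44 and 219 in kidney against neural. DESeq2 gave 40 lower in small intestine and 35 lower in large intestine. With separate neural tissues there were 47 lower in kidney, 75 higher and 50 lower in small intestine and 40 lower in large intestine. With 1 profile left out the counts ran from 26 to 62 higher and 4 to 35 lower in kidney, 19 to 69 lower in muscle, 24 to 70 higher and 0 to 37 lower in small intestine, 22 to 57 higher and 1 to 28 lower in large intestine, and 76 to 140 lower in kidney against neural. miR-204-3p was not tested in any comparison because its mean was below the filter.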
